A study of Mus musculus with 4 samples.

Results

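The TNF superfamily ligands are a family of membrane-bound or shed proteins through which immune cells instruct each other, and 9 of them were chosen by name for this account: Tnf, Tnfsf4, Tnfsf8, Tnfsf9, Tnfsf10, Tnfsf12, Tnfsf13b, Tnfsf14 and Tnfsf15. A ligand was read from every probe set (a group of short probes aimed at 1 transcript) whose only gene symbol in the platform annotation was its own. This gave 12 of the 45037 probe sets, for 7 of the 9 ligands, out of 18193 genes with a probe set of their own. Tnfsf12 was listed only on 2 probe sets that also carried other symbols, Tnfsf15 had no probe set under its symbol alone, and both were not analysed here.

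The cells were bone marrow-derived macrophages of MyD88 -/- mice, cultured for 6 days with human M-CSF, which directs marrow precursors to become macrophages. One group received 100 ug/ml of zymosan, particles of yeast cell wall, for 120 min (2 arrays). The other was left unstimulated at 0 min (2 arrays). The sample titles of the unstimulated arrays name LPS and PIC, while those of the zymosan arrays name ZYM. No unstimulated array was taken at 120 min, so time and stimulus cannot be told apart. Every group lacked MyD88, the adaptor of most Toll-like receptors and of the interleukin-1 receptor, so the differences here were measured without it. How cells with MyD88 would have responded cannot be read from these arrays. The labels give no strain, age or sex of the mice and leave unstated whether separate animals or cultures stand behind the arrays of 1 group. The p-values therefore set each difference between the groups only against the spread of arrays within the groups, which may be technical.

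Most TNF superfamily ligands are trimers that gather their receptors at the cell surface, and the receptors pass the signal on through TRAF adaptors to NF-kB and MAP kinases or, where they carry a death domain, to caspases. In macrophages Tnf is a classical early product of NF-kB and is released by the protease encoded by Adam17. Other ligands of the family act mostly on lymphocytes: they costimulate T cells (Tnfsf4, Tnfsf8, Tnfsf9, Tnfsf14), sustain B cells (Tnfsf13b) or can trigger cell death (Tnfsf10).

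Values are log2 RMA expression values, differences are zymosan minus unstimulated on that scale, and a probe set was called when its adjusted p in limma was under 0.05. Tested, or kept, were probe sets at or above the 40th percentile of an array, a level of 4.36 to 4.39, on at least 2 arrays. Between the unstimulated arrays lay 16 days, and both zymosan arrays were processed together on another day, 153 days after the first array, by another operator and under another project name. Processing day and stimulus therefore cannot be told apart in any result here. The unstimulated arrays also lay further from each other than the zymosan arrays did, with an SD of 0.20 for the zymosan pair's differences and 0.29 for the unstimulated pair's over the 27571 kept probe sets. Myd88, with 8.37 and 8.40 on the zymosan arrays and 8.72 and 8.78 on the unstimulated arrays, checks no label, since all arrays are labelled deficient and the place of its probes relative to the deletion is not known here.

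The ligands split after zymosan. Tnf and Tnfsf9 rose 3.60-fold and 2.41-fold, Tnfsf14 and Tnfsf13b fell, by about 1 unit on the log2 scale, and Tnfsf4, Tnfsf8 and Tnfsf10 did not pass the test. Of the 9 kept probe sets of the 7 ligands, 2 were called higher and 3 lower. Over all kept probe sets, 8.48% were called higher and 7.45% lower. The median difference of the kept ligand probe sets was -0.12, beside -0.01 for all kept probe sets. On 6 of the 9 the zymosan arrays did not overlap the unstimulated arrays, 2 of them higher and 4 lower, where 30.4% of all kept probe sets were higher and 30.2% lower without overlap, 60.6% in all.

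**Figure D1:**
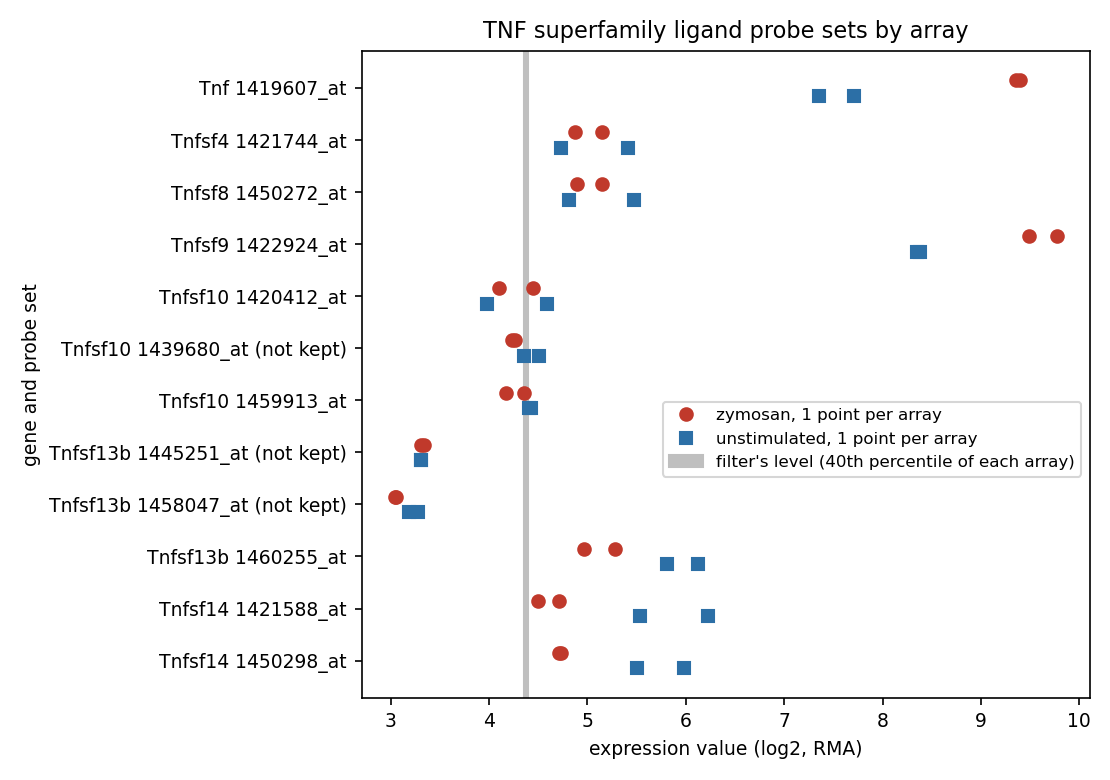
Log2 RMA value of each of the 12 ligand probe sets on each array, with zymosan arrays as red circles above unstimulated arrays as blue squares, and the filter's level of 4.36 to 4.39 as a grey band. The zymosan circles lie right of the unstimulated squares for Tnf and Tnfsf9 and left of them for Tnfsf14 and for probe set 1460255_at of Tnfsf13b, while the Tnfsf10 probe sets lie around the band.

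Tnf, the founding ligand of the family and a driver of acute inflammation, had 9.40 and 9.36 on the zymosan arrays and 7.71 and 7.35 on the unstimulated arrays at its single probe set, 1419607_at. Both zymosan arrays lay well above both unstimulated arrays, and each single zymosan array exceeded each unstimulated array by 1.65 to 2.05. The means were 9.38 ± 0.03 with zymosan and 7.53 ± 0.26 without (SD, n = 2 each). The difference of 1.85 (SE 0.15, 95% interval 1.48 to 2.22) passed limma's test with an adjusted p of 0.00338. It was the largest increase among the ligands, with rank 129 among the increases of the 27571 kept probe sets, and it stayed past the threshold under all 10 alternatives, at 1.67 to 2.03 with adjusted p from 0.00186 to 0.0436.

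The 250 bases before the start of Tnf are shown because Tnf moved most among the ligands, and they come from RefSeq on build GRCm38.p6 (chr17:35202008-35202257, minus strand). Capitals mark the motifs found in them.
Tnf: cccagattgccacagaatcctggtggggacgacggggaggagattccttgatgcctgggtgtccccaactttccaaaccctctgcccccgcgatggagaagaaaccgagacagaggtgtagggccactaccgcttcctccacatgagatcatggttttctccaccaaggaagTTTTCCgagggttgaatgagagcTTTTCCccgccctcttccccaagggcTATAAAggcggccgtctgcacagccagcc
The search covered both strands for the NF-kB consensus, AP-1 (TGANTCA), the NFAT core (GGAAAA), the core of the interferon response element (GAAA, any 2 bases, then GAAA), the TATA box (TATAAA) and EGR sites (GCGNGGGCG). In Tnf the NFAT core matched on the opposite strand, as TTTTCC, at -78 to -73 and again at -55 to -50 from the start, and the TATA box matched at -29 to -24. These matches did not overlap. Of 32851 promoters of the same length, 20.4% held the NFAT core, 12.4% the TATA box and 3.9% the NF-kB consensus. The absence of an NF-kB consensus match says only that these letters do not occur in this window.

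Tnfsf9, which encodes the ligand of the T cell costimulatory receptor 4-1BB, was also higher. At 1422924_at it had 9.77 and 9.49 on the zymosan arrays and 8.35 and 8.38 on the unstimulated arrays. The lowest zymosan array exceeded the highest unstimulated array by 1.11, and here the unstimulated pair was the tighter one. The means were 9.63 ± 0.20 with zymosan and 8.36 ± 0.02 without (SD, n = 2 each). The difference was 1.27 (SE 0.13, 95% interval 0.94 to 1.59) with an adjusted p of 0.0057 in limma. It was past the threshold under the same 10 alternatives, at 1.13 to 1.41 with adjusted p from 0.00312 to 0.0454.

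Tnfsf14, whose product LIGHT binds the herpesvirus entry mediator and the lymphotoxin beta receptor, was lower at both of its probe sets. At 1421588_at the values were 4.71 and 4.50 on the zymosan arrays and 6.23 and 5.53 on the unstimulated arrays. At 1450298_at they were 4.71 and 4.73 on the zymosan arrays and 5.98 and 5.50 on the unstimulated arrays. No zymosan array reached an unstimulated array at either probe set, and the zymosan values stood only just above the filter's level. The differences were -1.28 (SE 0.24, 95% interval -1.87 to -0.68, adjusted p = 0.0233 in limma), which is 2.42-fold lower, and -1.02 (SE 0.18, 95% interval -1.46 to -0.59, adjusted p = 0.0184), which is 2.03-fold lower. Both probe sets were designed on a RefSeq transcript of this gene, so they are repeat readings of 1 gene and not replicates.

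The fall of Tnfsf14 rests on less than the rises. With processing day as a random block its probe sets had adjusted p of 0.0645 and 0.0537 in limma, and without zymosan replicate 1 they had 0.102 and 0.111, without zymosan replicate 2 0.154 and 0.125. The sizes kept their sign, from -1.63 to -0.92 at 1421588_at and from -1.26 to -0.78 at 1450298_at. Calls became fewer over the whole table in these fits too, so their loss was not particular to Tnfsf14, nor to Tnfsf13b below. With the block 647 of all kept probe sets were called lower, beside 2054 as reported. Without a zymosan array the spread within groups came from the unstimulated pair alone. The unstimulated arrays lay 0.70 and 0.48 apart at these probe sets, with unstimulated 1 the higher.

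The upstream 250 bases of Tnfsf14 are set beside those of Tnf because the pair moved in opposite directions (RefSeq, GRCm38.p6, chr17:57194182-57194431, minus strand), with motif matches in capitals.
Tnfsf14: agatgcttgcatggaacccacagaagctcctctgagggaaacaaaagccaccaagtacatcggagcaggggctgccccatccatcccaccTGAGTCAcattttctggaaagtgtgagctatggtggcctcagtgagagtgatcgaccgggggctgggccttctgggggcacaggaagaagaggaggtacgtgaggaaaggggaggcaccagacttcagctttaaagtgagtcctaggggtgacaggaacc
An AP-1 match, TGAGTCA, lay at -160 to -154, and none of the other motifs searched matched. AP-1 matched in 6.75% of all promoters.

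Tnfsf13b, which encodes the B cell survival factor BAFF, was lower at the probe set designed on its RefSeq transcript, 1460255_at. It had 4.96 and 5.28 on the zymosan arrays and 6.12 and 5.81 on the unstimulated arrays, with no overlap and a gap of 0.52 between the nearest arrays of the groups. The means were 5.12 ± 0.23 with zymosan and 5.96 ± 0.22 without (SD, n = 2 each). The difference of -0.84 (SE 0.17, 95% interval -1.25 to -0.42) gave an adjusted p of 0.0276 in limma and corresponds to 1.79-fold lower.

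Of the called ligands, Tnfsf13b was the nearest to the threshold. Its adjusted p in limma was 0.105 with processing day as a random block, 0.156 without zymosan replicate 1, 0.0917 without zymosan replicate 2 and 0.0537 without unstimulated replicate 1, and its difference ran from -1.0 to -0.68 over the 10 alternatives. The other probe sets of Tnfsf13b, 1445251_at and 1458047_at, were designed on other GenBank sequences and were below the filter's level on all 4 arrays, at 3.31 to 3.34 and at 3.04 to 3.28. They read no signal above that level in either group, so they neither repeat nor contradict the fall.

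Tnfsf13b has a pair of annotated starts, and the 250 bases before the first are shown for comparison with the ligands above (RefSeq, GRCm38.p6, chr8:10006217-10006466, plus strand). None of the motifs searched matched there, so the sequence carries no capitals.
Tnfsf13b: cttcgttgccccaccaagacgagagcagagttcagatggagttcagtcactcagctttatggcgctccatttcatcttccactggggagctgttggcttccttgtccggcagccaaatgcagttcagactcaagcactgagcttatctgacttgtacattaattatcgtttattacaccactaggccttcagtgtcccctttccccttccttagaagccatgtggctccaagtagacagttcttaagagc
Upstream of the second start, an interferon response core, GAAAGTGAAA, lay at -16 to -7 and an AP-1 match, TGAGTCA, at -127 to -121. The interferon response core matched in 2.98% of all promoters.

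**Figure D2:**
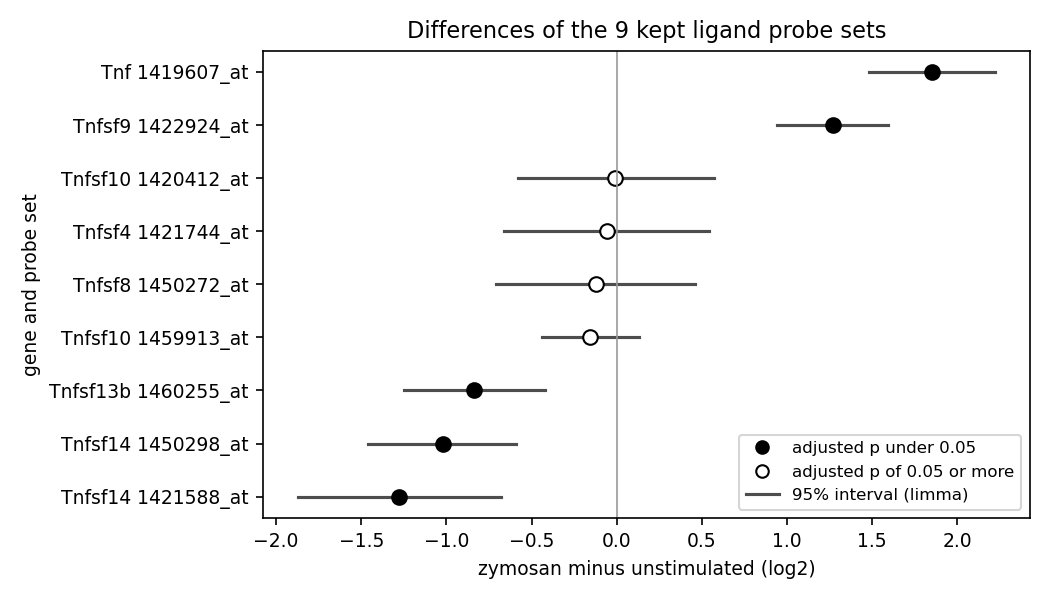
Difference between zymosan and unstimulated arrays (log2) of each of the 9 kept ligand probe sets with its 95% interval from limma, ordered by size. Filled points passed the test. Tnf and Tnfsf9 lie right of 0 and Tnfsf13b and both Tnfsf14 probe sets left of it, while the other intervals include 0.

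Tnfsf10, which encodes the death ligand TRAIL, gave no called difference. At 1420412_at the values were 4.45 and 4.10 on the zymosan arrays and 4.59 and 3.98 on the unstimulated arrays, so the groups overlapped and 1 array of each lay below the filter's level. The difference was -0.01 (95% interval -0.58 to 0.57, adjusted p = 0.991 in limma). At 1459913_at it was -0.16 (95% interval -0.44 to 0.13, adjusted p = 0.41), with 4.36 and 4.17 on the zymosan arrays and 4.41 and 4.43 on the unstimulated arrays. This probe set was kept through the unstimulated arrays alone. The third, 1439680_at, was not kept, with 4.23 and 4.26 on the zymosan arrays and 4.35 and 4.51 on the unstimulated arrays. All 3 probe sets lay around the filter's level, where RMA also gives a value for an absent transcript.

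Tnfsf4, the OX40 ligand, and Tnfsf8, the CD30 ligand, act on T cells and likewise did not pass the test. Tnfsf4 had 4.87 and 5.15 on the zymosan arrays and 5.41 and 4.73 on the unstimulated arrays, a difference of -0.06 (95% interval -0.66 to 0.54, adjusted p = 0.902 in limma). Tnfsf8 had 5.15 and 4.89 on the zymosan arrays and 5.47 and 4.81 on the unstimulated arrays, a difference of -0.12 (95% interval -0.71 to 0.46, adjusted p = 0.78). In both, the zymosan arrays lay between the unstimulated arrays. Both intervals leave room for changes in either direction.

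What several ligands shared was a gap within the unstimulated pair. On 7 of the 9 kept probe sets unstimulated 1 was higher than unstimulated 2, by a median of 0.48 over the 9, while 52.3% of all kept probe sets were higher on unstimulated 1, with a median gap of 0.01. The pair was more than 0.3 apart on 7 of the 9 (22.6% of all kept probe sets) and more than 0.6 apart on 4, those of Tnfsf4 (0.68), Tnfsf8 (0.66), Tnfsf10 at 1420412_at (0.61) and Tnfsf14 at 1421588_at (0.70), where 4.49% of all kept probe sets were. The zymosan pair was more than 0.3 apart on 2 of the 9 (12% of all). For Tnfsf4, Tnfsf8 and 1 probe set of Tnfsf10 this gap exceeded the difference between the groups. For Tnf (0.36) and Tnfsf9 (-0.03) it was far smaller than that difference.

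Several ligands of the family lie beside each other in the genome. In the RefSeq annotation Tnf lies between Ltb and Lta, the genes of the lymphotoxins. Ltb had 4.49 and 4.41 on the zymosan arrays and 4.80 and 4.90 on the unstimulated arrays, a difference of -0.40 (SE 0.11) that did not pass the test (adjusted p = 0.0603 in limma), and Lta was below the filter. The Ltb values stood near the filter's level, where RMA also gives a value for an absent transcript. Tnfsf9 and Tnfsf14, one called higher and the other lower, are separated on chromosome 17 by Cd70 alone, and Cd70 was below the filter on every array. Tnfsf4 neighbours Tnfsf18, Tnfsf8 neighbours Tnfsf15, and Tnfsf12 neighbours Tnfsf13. Of these partners, none had a kept probe set of its own symbol.

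Among the other ligands of the superfamily, 7 of 9 had a probe set under their symbol alone and 3 were kept, Ltb, Cd40lg and Eda. For this and the lists that follow, a gene was represented by its kept probe set of highest mean, and of all 13222 genes kept in this way 8.36% were called higher and 5.64% lower. Limma called 0 of the 3 higher and 0 lower, against 0 and 1 at an unadjusted p under 0.05. Their median difference was -0.22. Cd40lg, the CD40 ligand of T cells, differed by -0.22 (adjusted p = 0.281) and Eda, ectodysplasin, by -0.16 (adjusted p = 0.375). The other kept probe sets of Eda disagreed in direction, at -0.21 and 0.15, and neither was called. Fasl and Tnfsf11 had no kept probe set.

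The genes whose arrays followed Tnf most closely were Ctsk, F7, Lcn2, Trim13 and Bcl3, at distances of 0.10 to 0.17 between profiles of 4 arrays, each centred on its own mean, out of 13222 genes. Ctsk encodes the collagen-degrading cathepsin K, F7 coagulation factor VII, Lcn2 the siderophore-binding lipocalin 2 and Bcl3 an atypical IkB protein. Their differences ran from 1.70 to 1.94. The nearest to Tnfsf14 (1421588_at) were Ifi35, Isg20, Dhx58, Kifc1 and Cytip, at distances of 0.09 to 0.17 and with differences from -1.38 to -1.18. Ifi35, Isg20 and Dhx58 are known as interferon-induced genes. All 5 shared the high value of unstimulated 1, which follows from their choice by closeness to the Tnfsf14 profile. With 4 arrays in 2 groups, such likeness is a description only.

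**Figure D3:**
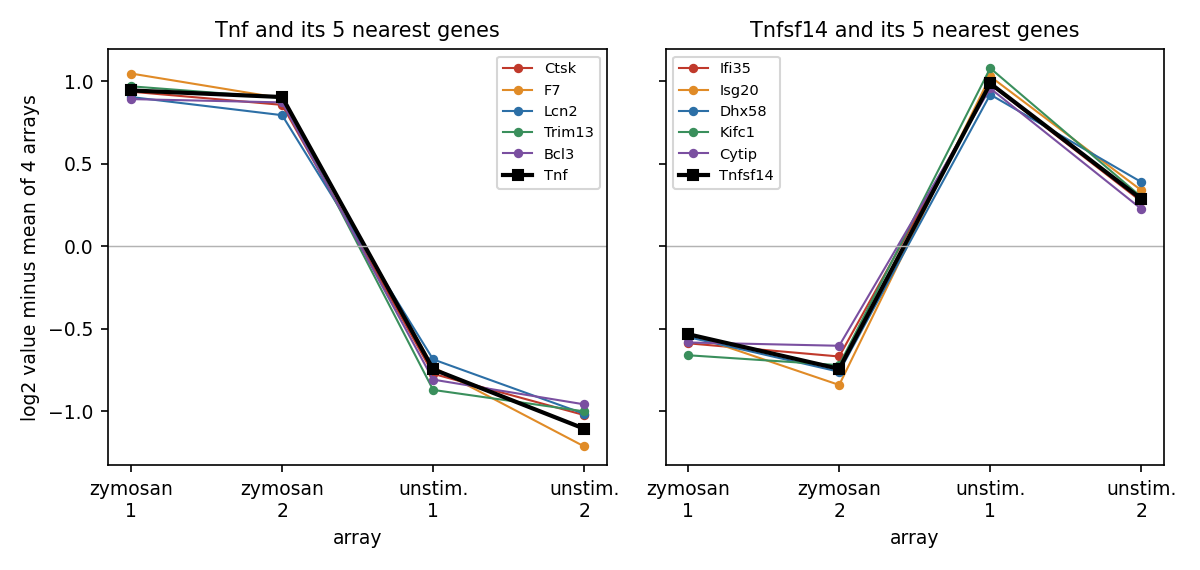
Log2 value of each array minus the mean of the 4 arrays, for Tnf (left) and Tnfsf14 at 1421588_at (right) as black squares and for the 5 genes nearest to each as coloured lines. Tnf and its neighbours are high on both zymosan arrays, and Tnfsf14 and its neighbours are highest on unstimulated 1.

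Of the receptors of these ligands a single gene was called. Of 14 receptor genes 12 were kept, 1 was called higher and 0 lower by limma (1 and 0 at an unadjusted p under 0.05), where 8.36% of all kept genes were called higher and 5.64% lower, and their median difference was -0.07. Tnfrsf1b, which encodes the TNF receptor found mainly on immune cells, was the one called, but its probe sets disagreed. At 1418099_at, which represented it, it had 9.60 and 9.67 on the zymosan arrays and 8.87 and 8.82 on the unstimulated arrays, a rise of 0.79 (SE 0.10, adjusted p = 0.0098 in limma). At 1448951_at it had 7.09 and 6.62 on the zymosan arrays and 7.87 and 7.64 on the unstimulated arrays, a fall of 0.90 with an adjusted p of 0.0312. Without zymosan replicate 1 the adjusted p of 1418099_at was 0.0757, and without zymosan replicate 2 it was 0.102. The direction of this receptor gene is therefore not settled by these arrays.

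Tnfrsf1a, the widely expressed death-domain receptor of TNF, had 9.99 and 9.87 on the zymosan arrays and 10.07 and 10.08 on the unstimulated arrays, a difference of -0.15 (adjusted p = 0.411 in limma). Ltbr, which binds LIGHT, differed by -0.13 (adjusted p = 0.505), and Tnfrsf14, the herpesvirus entry mediator, by -0.11 (adjusted p = 0.562). Tnfrsf13b, a receptor of BAFF, differed by 0.16 (adjusted p = 0.391), and the BAFF receptors Tnfrsf13c and Tnfrsf17 by -0.06 and 0.16. Tnfrsf9, the receptor of the Tnfsf9 product, differed by -0.08 (adjusted p = 0.63), Tnfrsf4 by -0.19, Tnfrsf8 by -0.06, Tnfrsf11b by -0.19 and Tnfrsf12a by 0.19. The TRAIL receptor gene Tnfrsf10b and Tnfrsf25 were below the filter. Of the kept receptor genes, Tnfrsf8, Tnfrsf9, Tnfrsf11b, Tnfrsf13c, Tnfrsf14 and Tnfrsf17 lay near the filter's level, at 4.08 to 4.95 across the arrays. Tnfrsf11b reached that level on 2 arrays only. Near that level RMA also gives a value for an absent transcript, so their small differences do not show that they were expressed and unchanged. The 60th percentile filter kept 6 receptor genes and removed these.

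Signalling genes next to the receptors rose in part. Of 25 listed genes 23 were kept, 5 rose and 0 fell by limma (7 and 2 at an unadjusted p under 0.05), beside 8.36% higher and 5.64% lower over all kept genes, with a median difference of 0.11. Tnfaip3, the ubiquitin-editing inhibitor A20, rose 6.21-fold, at 10.41 and 10.45 on the zymosan arrays and 7.79 and 7.81 on the unstimulated arrays (adjusted p = 0.000838). Cflar, which encodes the caspase-8 inhibitor cFLIP, rose 3.13-fold (adjusted p = 0.00337), Birc3, the inhibitor of apoptosis cIAP2, 2.47-fold (adjusted p = 0.00576) and the adaptor Traf1 2.54-fold (adjusted p = 0.00947). The fifth was Tnip1, a partner of A20, named after its value was seen, at 1.76-fold (adjusted p = 0.0281). The probe sets of Cflar disagreed in part, from a called 1.64 down to -0.48, which was not called, and the other probe set of Birc3 differed by 0.46 without passing the test. The adaptors Tradd, Fadd and Traf2 did not pass the test, at -0.08, 0.08 and 0.32, nor did Casp8 (-0.13), the deubiquitinase gene Cyld (0.08) or Birc2 (0.35), a relative of Birc3. Without zymosan replicate 1, 2 of the genes were called higher, and without zymosan replicate 2, 3.

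Genes that govern the release of TNF and the use of its mRNA moved both ways. Of 16 listed 15 were kept, 4 rose and 2 fell by limma (7 and 3 at an unadjusted p under 0.05), beside 8.36% higher and 5.64% lower over all kept genes, with a median difference of 0.32. Tia1, which silences translation of Tnf mRNA, rose 3.34-fold at its representing probe set (adjusted p = 0.00234 in limma), while its other kept probe sets differed by 0.40, 0.05 and -0.17 without passing the test. Zfp36, the tristetraprolin that marks Tnf mRNA for decay, rose 1.73-fold (adjusted p = 0.0116), at 9.57 and 9.42 on the zymosan arrays and 8.69 and 8.72 on the unstimulated arrays. Its relative Zfp36l2 was 2.01-fold lower (adjusted p = 0.00884), with other probe sets at -0.94, which was called, and -0.16, which was not. Sppl2a, a protease that cuts the membrane stub of TNF, was 1.78-fold lower (adjusted p = 0.0118) and was called lower at all 3 of its probe sets, the largest difference being -1.60.

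Adam17, the sheddase of TNF, showed a difference of -0.08 (adjusted p = 0.673 in limma) at its representing probe set, although another, 1421857_at, was called lower (-1.20, adjusted p = 0.00961). Rhbdf2, the iRhom that carries that protease to the surface, differed by 0.43 (adjusted p = 0.0579). Of this list, 1 gene was called higher with processing day as a random block and also when either zymosan array was left out. Without either zymosan array limma called 0 of its genes lower (2 at an unadjusted p under 0.05 in each case).

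Of 18 listed transcription factors known to act on promoters of the family 16 were kept, 6 were called higher and 4 lower by limma (6 and 5 at an unadjusted p under 0.05), beside 8.36% higher and 5.64% lower over all kept genes. Their median difference was 0.06. Egr1 rose 9.63-fold, Irf1 4.17-fold and Junb, an AP-1 subunit, 2.98-fold (adjusted p from 0.00206 to 0.00213 in limma), and Nfatc2 was 3.24-fold lower at its representing probe set (adjusted p = 0.00389). The other kept probe sets of Nfatc2 were not called, with adjusted p of 0.161, 0.669 and 0.998, the largest of their differences being -0.45. The AP-1 genes Fos, at -0.40, and Jun, at 0.10, did not pass the test (adjusted p of 0.114 and 0.7 in limma). The other probe set of Jun, at 0.48, was not called either. The NF-kB subunit genes Relb, Rel and Nfkb2 rose 2.27-fold, 2.31-fold and 1.58-fold, while Rela, at 0.03, did not pass the test. Irf7, an interferon-induced activator of interferon genes, was 7.0-fold lower (adjusted p = 0.00911 in limma). It had 5.95 and 5.77 on the zymosan arrays and 9.24 and 8.09 on the unstimulated arrays, a gap of 1.15 within the latter pair. Its difference was not recomputed singly under the alternatives. Irf7, Fos, Jun and these NF-kB genes were named after their values were seen. Without either zymosan array 1 gene was called lower, and with processing day as a random block 2.

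**Figure D4:**
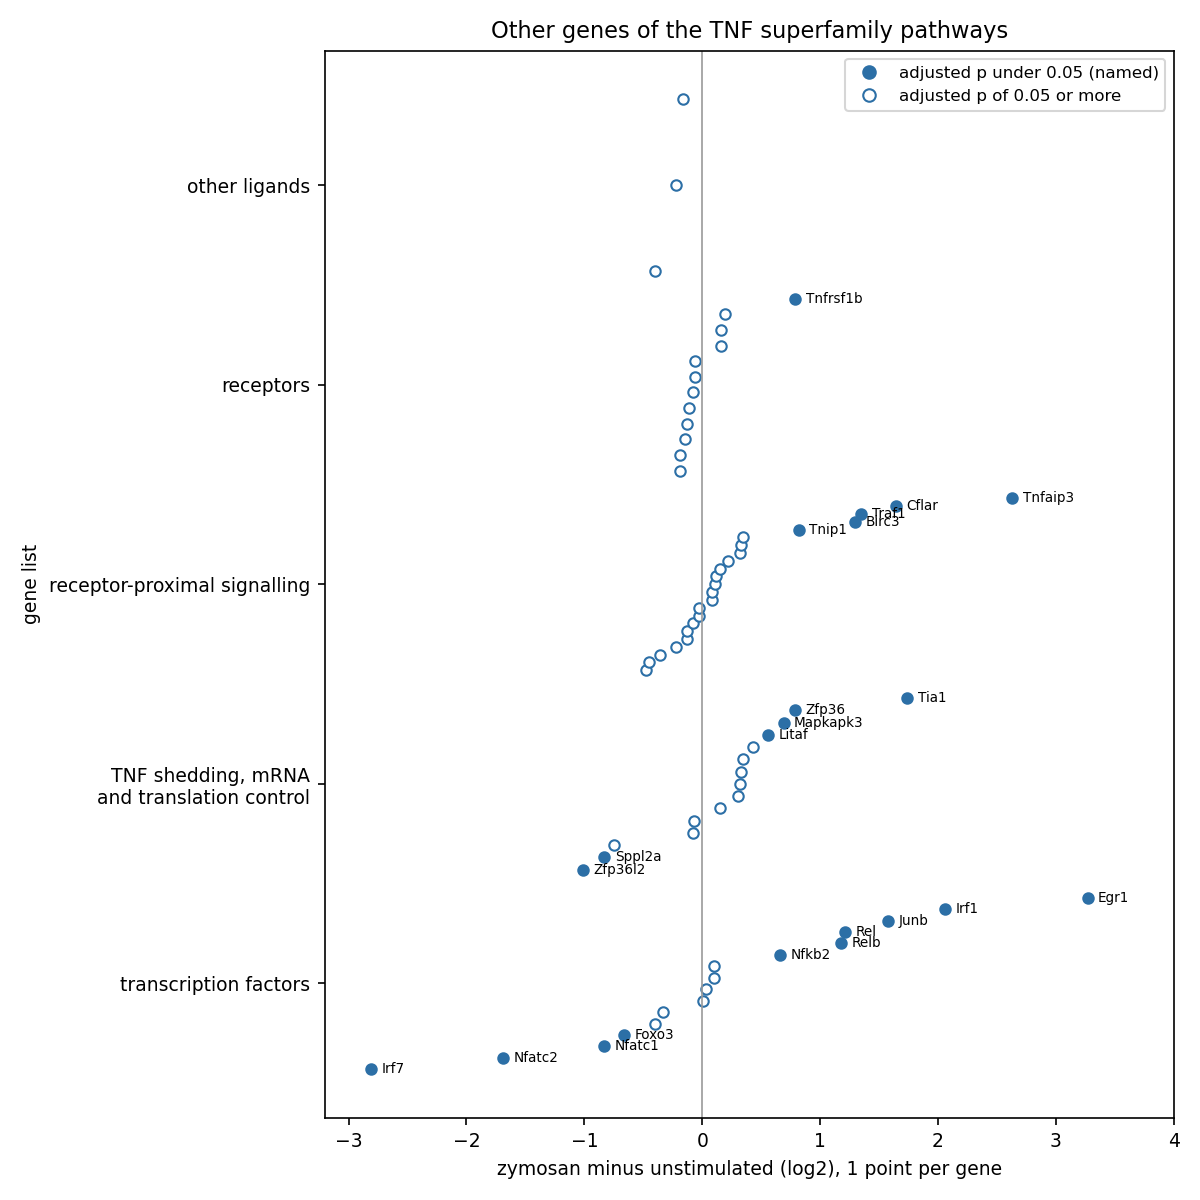
Difference between zymosan and unstimulated arrays (log2) for each kept gene of 5 lists around the ligands, 1 point per gene at its probe set of highest mean, filled and named where the adjusted p was under 0.05. Of the receptors only Tnfrsf1b is filled, and the filled signalling genes all lie right of 0.

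Markers of other cells were read beside the ligands, where 8.36% of all kept genes were called higher and 5.64% lower. Of 9 markers of neutrophils and their precursors 7 were kept and 6 rose, with a mean log2 value of 8.31 and 8.35 on the zymosan arrays and 6.38 and 6.29 on the unstimulated arrays, while Ly6g and Cxcr2 were below the filter. All 8 macrophage markers were kept, with a mean of 11.16 and 11.15 on the zymosan arrays and 11.55 and 11.82 on the unstimulated arrays, and Adgre1, Fcgr1 and Itgam were called lower. The part of these shifts in the ligand differences was not tested, and in bulk RNA fewer cells of a type and less RNA per cell cannot be told apart. Of 8 T and NK cell markers, which include cells that make several of these ligands, 3 were kept and none was called, with Cd3d, Cd3g, Lck, Ncr1 and Nkg7 below the filter. Of 5 B cell markers 3 were kept and Cd79b was lower, and of 6 dendritic cell markers 5 were kept and Itgax was lower. No marker of mast cells and basophils was kept. Megakaryocyte (4 of 4 kept), endothelial (1 of 4) and fibroblast (2 of 4) markers had no called member.

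**Figure D5:**
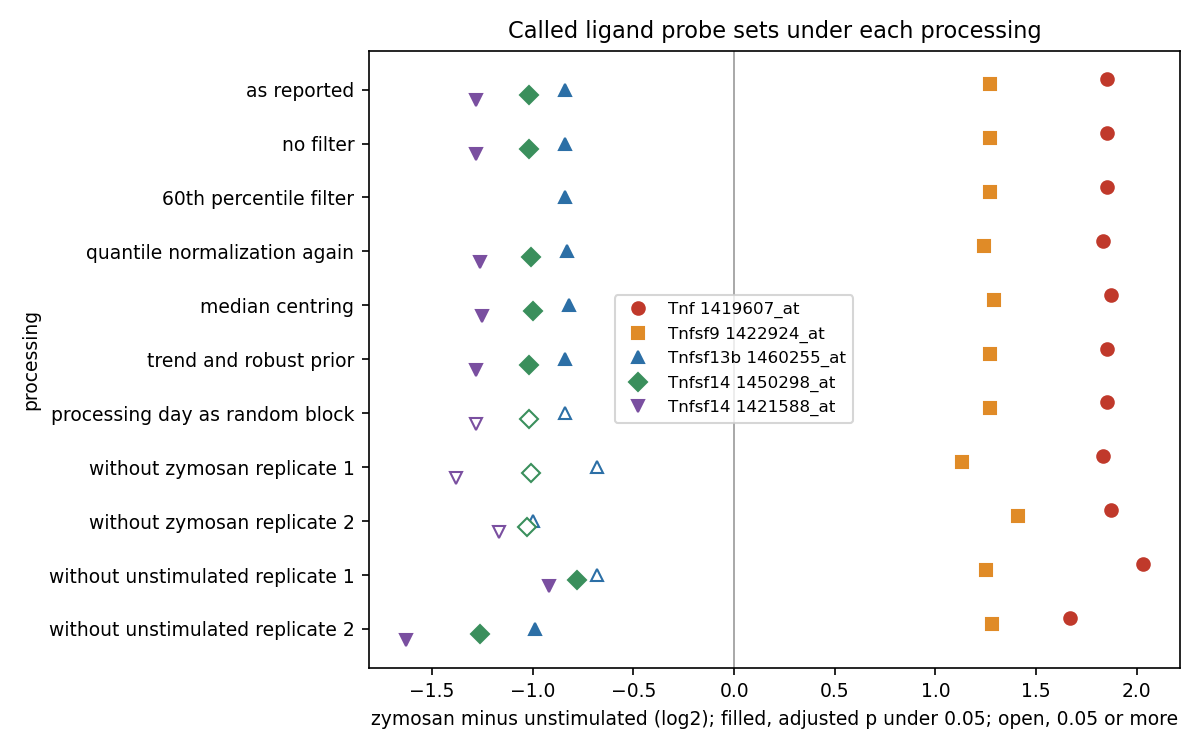
Difference between zymosan and unstimulated arrays (log2) of the 5 called ligand probe sets under each processing, filled where the adjusted p was under 0.05. Tnf and Tnfsf9 are filled throughout, whereas Tnfsf13b and Tnfsf14 are open with processing day as a random block and without either zymosan array, and Tnfsf13b also without unstimulated replicate 1. The Tnfsf14 probe sets did not pass the 60th percentile filter and have no point there.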

How the data were processed

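RNA of 4 samples was hybridised, as biotin-labelled cRNA made from 4 ug of total RNA, to Affymetrix Mouse430_2 arrays. Per the submitters' processing notes RMA was used, and the deposited values are on the log2 scale. The method corrects background, gives all arrays 1 distribution and summarizes each probe set's probes. The RMA version, and which arrays went into 1 normalization, is not given in the sources used here. Array medians were 4.92 to 4.94 and values 2.35 to 14.5, so nothing further was normalized. The scanner's settings files gave chip type and processing day. After 64 controls were set aside, 34945 probe sets had 1 symbol, 932 several and 9160 none, and only the first were named. No symbol needed updating through the RefSeq table.

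Tests used lmFit and eBayes in limma 3.58.1 (R 4.3.3), 2-sided, with Benjamini-Hochberg adjustment over the 27571 kept probe sets, and were tested on simulated data. An exact permutation test of 2 arrays against 2 cannot pass the threshold. The number of arrays limits the precision. The block correlation (0.54) came from the pooled variances within and across days, chosen after seeing the data, since limma's function needs more than 4 arrays. Only the zymosan pair lay within a day, and only the unstimulated pair lay across days. This correlation therefore cannot tell a day effect from an unequal spread of the groups.

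All ligand probe sets, all receptors and other ligands, the 4 called genes of smallest p in each further list, and the 5 nearest genes of Tnf and of the ligand with the largest fall were named. Further genes were named after their values were seen. Members and lists were chosen with earlier results of these data known. Promoters were taken from RefSeq (GRCm38.p6), which held 6 of the 9 ligands.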

Additional observations from a re-analysis of the deposited data

How the results depend on the processing

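Of 345 recomputations of single probe sets, 314 kept direction and side of the threshold, 22 lost the call (17 without a zymosan array, 4 with processing day as a random block) and 9 changed sign, all of values that were not called. Tnf and Tnfsf9 were called in every alternative, so the ligand probe sets called higher stayed at 2. Those called lower were 1 with the 60th percentile filter, which removed both Tnfsf14 probe sets, 0 with the block (3 at an unadjusted p under 0.05 in limma), and 0 to 3 when 1 array was left out (0 without either zymosan array, 3 at an unadjusted p under 0.05). Sign changed for Tnfsf10 at 1420412_at with quantile normalization again (0.02), median centring (0.02), and, with 1 array left out, for Tnfsf10 (-0.31 to 0.30, among them 0.17), Tnfsf4 (-0.40 to 0.28, among them 0.08), Tnfsf8 (-0.45 to 0.21, among them 0.01) and Tnfrsf17 (-0.01 to 0.33). Over all kept probe sets, 741 were higher and 647 lower with the block, and 231 to 2531 and 157 to 2280 with 1 array left out.

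For the lists, leaving 1 array out gave these ranges of genes called higher and lower: receptors 0 to 1 and 0, signalling 2 to 6 and 0 to 1, TNF shedding and mRNA 1 to 5 and 0 to 3, transcription factors 4 to 6 and 1 to 5, other ligands 0 and 0. Medians ran from -0.07 to -0.05, 0.01 to 0.15, 0.27 to 0.31, -0.03 to 0.08 and -0.34 to -0.19. With the block 1 gene of TNF shedding and mRNA was higher (5 at an unadjusted p under 0.05) and 2 transcription factors lower. With a gene as the mean of its kept probe sets, limma called 0 receptors higher (0 at an unadjusted p under 0.05) and 1 other ligand lower, and the medians were 0.02 for signalling and 0.15 for shedding. The receptor median was 0.01 with the 60th percentile filter and -0.05 with median centring or quantile normalization again, and the shedding median 0.34 and 0.28 with these. No other ligand passed the 60th percentile filter. The cause of these shifts was not tested. No paired analysis was possible because the labels give no replicate numbers that the groups share.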
